A study of Homo sapiens with 20 samples.

Results

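The effect of depleting ERRα in parental SKBr3 cells (pSKBr3) was read from 4 of the 20 arrays of the series, 2 from cells transfected with siERRα and 2 from cells transfected with a control siRNA (siC). All genes were taken that had a probe detected, at a detection p-value under 0.01, on both arrays of either group. This gave 8882 of the 9592 genes tested over all arrays, and 8260 of them were detected on both arrays of both groups, 151 on both arrays of the siC group only and 471 on both arrays of the siERRα group only. The highest detection p-value inside the limit was 0.00909 and the lowest outside it was 0.0104.

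SKBr3 is an established human breast cancer line with amplified ERBB2, the gene of the HER2 receptor. The study asked what ERRα does in such cells when they respond to growth factors and when they become resistant to lapatinib, an inhibitor of the HER2 and EGF receptor kinases. The parental cells were bought from a cell repository and grown with serum, they had received no lapatinib, and the labels also give their groups a DMSO name. They carried siRNA, a pool of duplexes against the transcript of ESRRA (the gene of ERRα) or a control pool, for 60 h. The arrays used for comparison came from SKBr3 cells resistant to lapatinib (kept in 2 µM per the protocol and 1 µM per the group label), from serum-starved cells given vehicle, and from starved cells given heregulin (HRG) at a labelled 100 µM for 24 h (the study's methods give a shorter time), each with siC and with siERRα. Cells given EGF at a labelled 100 µM for 24 h (again shorter in the methods), with siC and with siERRα, entered no comparison. Their arrays entered the normalisation, the probe filter and, but for 1, the estimate of the spread. Every group held 2 arrays. The labels do not say whether the 2 came from separate cultures, so the p-values measure the spread between these arrays, which may be technical. All cells came from a single line, and siRNA leaves part of the target in place.

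ERRα is an orphan nuclear receptor, a transcription factor without a known natural hormone that switches on genes together with the coactivators PGC-1α and PGC-1β. It binds DNA at an element of the form TNAAGGTCA (N is any base) and is best known as a regulator of the genes that mitochondria need to burn fuel: the subunits of the respiratory chain and the ATP synthase, enzymes of the TCA cycle and of fatty acid oxidation. Its own gene is among its textbook targets. In breast tumours it is studied as a driver of such metabolism that does not need oestrogen.

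ESRRA was lower on both arrays of depleted parental cells. Its log2 normalised intensity was 9.12 and 9.15 on the siC arrays and 7.60 and 8.02 on the siERRα arrays. The groups did not overlap, and the depleted cells were lower by 2.52-fold, a log2 difference of -1.33 with a standard error of 0.243. The smallest unadjusted p-values of the comparison included that of ESRRA, 0.000105, yet after Benjamini-Hochberg adjustment over the 9592 genes in limma it was 0.335, so the gene did not pass at 0.05. ESRRA passed that threshold with 3 other treatments of the same arrays, at adjusted p-values in limma of 0.0312 without background correction, 0.0462 with median scaling and 0.0406 with robust moderation. Leaving out 1 of the 4 parental arrays at a time gave log2 differences from -1.54 to -1.12 for it and adjusted p-values from 0.396 to 1. The authors' normalised table gave a smaller ESRRA difference, -0.83, with an adjusted limma p of 0.0938.

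**Figure D1:**
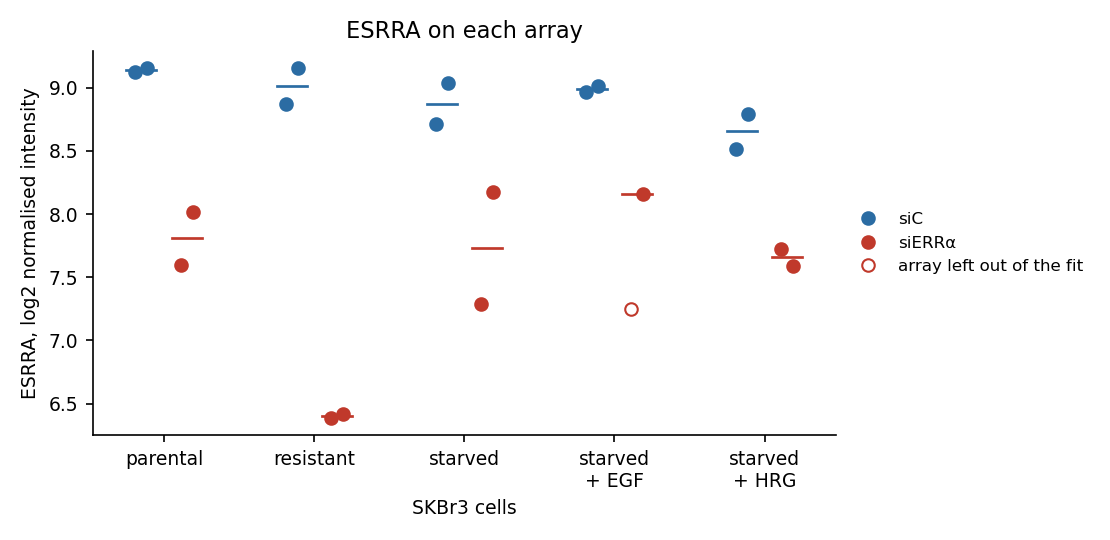
ESRRA on each of the 20 arrays (points, log2 normalised intensity) in SKBr3 cells of 5 kinds, with siC in blue and siERRα in red; bars are group means over the arrays in the fit, and the open point is the array left out of it. The siERRα points of parental cells lie at 7.60 and 8.02, below both siC points, and those of resistant cells lie lower still, at 6.39 and 6.41.

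The other cells gave the scale of this depletion. In resistant cells ESRRA read 8.87 and 9.15 with siC and 6.39 and 6.41 with siERRα, a log2 difference of -2.61 (6.12-fold lower) with an adjusted p of 0.000735 in limma. The log2 difference was -1.14 in starved cells and -0.99 in HRG-treated cells. Parental and resistant siC arrays thus started from overlapping ESRRA levels, whereas the siERRα arrays of the 2 cell types did not overlap. The difference between the responses, parental minus resistant, was 1.28 log2 units (SE 0.343) with an unadjusted p of 0.0025, or 0.00751 after adjustment in limma over the 3 differences from other cells tested for ESRRA, and 0.999 over all genes. Against starved cells the difference was -0.19 (unadjusted limma p 0.589), and against the mean of resistant, starved and HRG-treated cells it was 0.25 (unadjusted limma p 0.385).

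Across all genes no parental difference passed the adjusted threshold. In limma, 0 of 9592 genes (0%) had an adjusted p under 0.05, while 487 (5.08%) had an unadjusted p under 0.05. Of the genes detected in parental cells, 225 (2.53%) had lower and 245 (2.76%) higher values at that unadjusted level. Both siERRα arrays lay below both siC arrays for 1645 genes (18.5%) and above them for 1691 (19%). These shares are the background for every count that follows, and the values of single genes are given as descriptions. The median log2 difference over the 8882 genes was 0.00, with quartiles of -0.14 and 0.15, and the median standard error of a gene was 0.195.

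The 4 parental arrays were alike in quality. Between 13805 and 15177 probes were detected on each, replicates correlated at 0.989 across genes in both groups and arrays of different groups at 0.986 to 0.990 (genes are not independent replicates), and no 2 arrays of the series held identical values. On the siERRα arrays 15177 and 14685 probes were detected, more than the 13805 and 14354 of the siC arrays, and the part of this in the results below was not tested. Of the cells given EGF, 1 siERRα array (replicate 1) was unlike the others, correlating at 0.831 to 0.877 with the rest against 0.933 to 0.990 among the other 19 arrays. It belongs to no comparison here, and the spread was estimated without it. Luminal marker genes were detected for 14 or 15 of 18 genes per parental array, with summed intensities of 74889 to 79865 on the siC arrays and 79640 to 85698 on the siERRα arrays, and ERBB2 was among the brightest genes at 14.26 and 14.04 with siC and 14.59 and 14.21 with siERRα. The epithelial cadherin CDH1, which luminal cells usually carry, was detected on 0 of 4 arrays. KRT5 and KRT14 (basal cells), PTPRC (leukocytes), PECAM1 (endothelium) and COL1A1 (fibroblasts) were also detected on 0 of 4 arrays. Other markers of such cells were detected. On each array these were 3 of 7 basal markers and 1 of 14 mesenchymal and fibroblast markers, VIM. Of leukocyte markers 2 to 4 of 14 were detected per array, and of endothelial markers 0 to 2 of 9.

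The clearest common direction was in the nuclear genes of the respiratory chain and the ATP synthase, the machines of the inner mitochondrial membrane that pass electrons to oxygen and use the resulting proton gradient to make ATP. Of 73 measured genes of 3 lists, 66 had lower mean values with siERRα. Both siERRα arrays lay below both siC arrays for 41 of the 73 (56.2%, against 18.5% of all genes detected) and above them for 0 (against 19%). The median log2 difference was -0.17, against 0.00 over all genes. No member passed the adjusted threshold in either direction, and 13 had an unadjusted limma p under 0.05, all of them with lower values. Measured against the mean of the siC arrays, the median of the 73 was -0.22 on the first siERRα array and -0.14 on the second, while the 2 siC arrays lay 0.03 above and -0.03 below it. Most of these genes are bright, and 61 of the 73 were among the 2221 genes of highest intensity. Of those 2221 the siERRα arrays lay lower without overlap for 19.1% of genes and higher for 19.7%, with a median difference of 0.00.

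**Figure D2:**
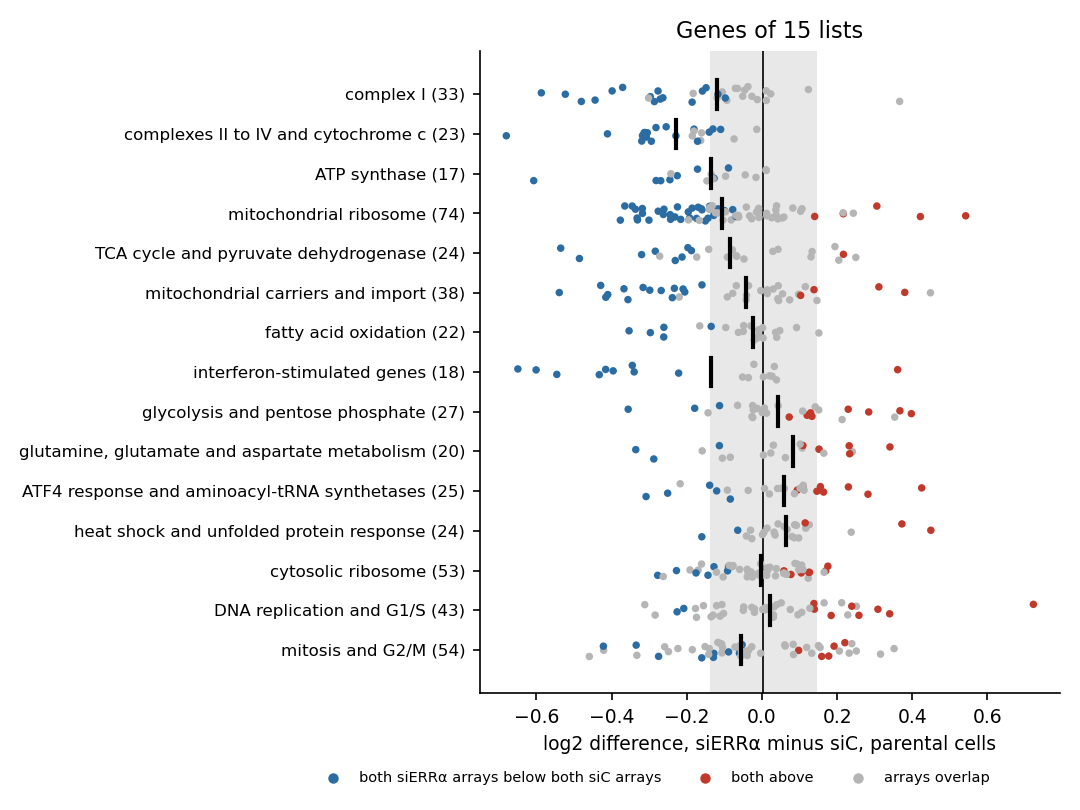
Log2 difference, siERRα minus siC, in parental cells for each measured gene (points) of 15 lists, with the number of measured genes in brackets; blue and red points are genes whose siERRα arrays lie both below or both above the siC arrays, thick bars are list medians, the thin line is the median of all 8882 genes and the grey band runs between their lower and upper quartiles. The respiratory lists hold no red point and their medians lie at -0.12, -0.23 and -0.13, while the cytosolic ribosome sits at 0.00.

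Complexes II to IV with cytochrome c showed it most evenly. All 23 measured genes had lower mean values, with a median of -0.23, and the arrays did not overlap for 17. UQCRB, a small subunit that helps bind ubiquinone in complex III, read 9.41 and 9.19 with siC and 8.41 and 8.82 with siERRα, which is 1.60-fold lower (log2 difference -0.68, SE 0.173, unadjusted limma p 0.0017, adjusted 0.797). SDHD, a membrane anchor of complex II (succinate dehydrogenase), read 10.22 and 10.29 against 9.76 and 9.93, 1.33-fold lower (SE 0.145, unadjusted limma p 0.0141). Neither gene had overlapping arrays. The nuclear subunits of cytochrome c oxidase (complex IV) COX4I1, COX8A and COX5A and the complex III subunit CYC1, which carries the haem of cytochrome c1, differed by -0.32, -0.31, -0.30 and -0.31 at unadjusted limma p-values of 0.0272, 0.0397, 0.0476 and 0.0437. Cytochrome c itself, CYCS, the mobile carrier between complexes III and IV, read 7.64 and 7.62 against 7.08 and 7.59, so that 1 siERRα array lay just under the siC arrays and the other well below. The smallest differences were those of COX7C (-0.01) and COX7A2L (-0.07), whose arrays overlapped.

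**Figure D3:**
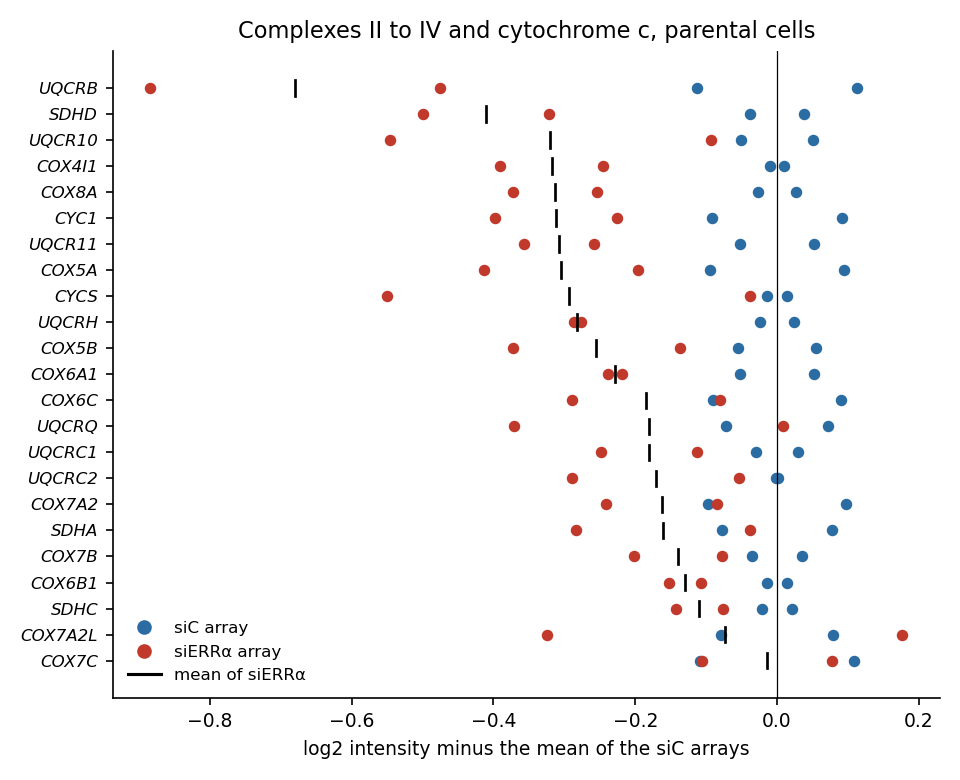
The 23 measured genes of complexes II to IV and cytochrome c in parental cells, each array (blue siC, red siERRα) plotted as its log2 intensity minus the mean of the siC arrays, with the mean of the siERRα arrays as a black bar. All bars lie left of 0, from -0.68 for UQCRB to -0.01 for COX7C, and most red points lie left of both blue ones.

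In complex I, which takes electrons from NADH, 28 of 33 measured genes had lower means, with a median of -0.12. The arrays lay lower without overlap for 16 and higher for 0. Measured against the mean of the siC arrays, the list median was 0.06 and -0.06 on the siC arrays. It was -0.18 and -0.14 on the siERRα arrays, so the siC arrays were less alike here than over the 73 genes. NDUFA8, an accessory subunit on the side of the intermembrane space, read 12.75 and 12.63 with siC and 12.16 and 12.25 with siERRα, 1.40-fold lower (SE 0.127, unadjusted limma p 0.0023, adjusted 0.838). The accessory subunits NDUFA1, NDUFA6 and NDUFB2 lay at -0.44, -0.52 and -0.40 with unadjusted limma p-values of 0.0054, 0.0106 and 0.0127. At the other end, the mean of NDUFV3 was higher by 0.37, with siC arrays at 6.56 and 7.30 and siERRα arrays at 7.28 and 7.31, so its arrays overlapped. Of the ATP synthase, 15 of 17 measured genes had lower means (median -0.13), 8 of them without overlap. ATP5MC3, one of 3 genes for the rotating c-ring subunit, read 6.94 and 7.28 against 6.38 and 6.64 (1.52-fold lower, unadjusted limma p 0.0168). ATP5F1B, the catalytic β subunit, read 14.62 and 14.59 against 14.41 and 14.46, a difference of -0.17, also without overlap.

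Textbook targets of ERRα were counted as a further list, which shares members with the others and includes ESRRA. Of 30 measured genes 24 had lower means (median -0.20), with arrays lower without overlap for 17 and higher for 1, MDH2, the mitochondrial malate dehydrogenase (0.22). Unadjusted limma p-values under 0.05 were reached by 8 of them, all with lower values. Apart from ESRRA, SLC25A4, which swaps ADP for ATP across the inner membrane, read 9.72 and 9.74 with siC and 9.35 and 9.25 with siERRα (1.35-fold lower, unadjusted limma p 0.0075). OGDH, a subunit of the 2-oxoglutarate dehydrogenase of the TCA cycle, read 8.24 and 8.04 against 7.73 and 7.48, and DLAT, the E2 subunit of pyruvate dehydrogenase, 9.32 and 9.09 against 8.69 and 8.75. They were 1.45-fold and 1.40-fold lower (unadjusted limma p 0.0085 and 0.0102), and neither had overlapping arrays. CKMT1A and CKMT1B, neighbouring near-identical copies of the mitochondrial creatine kinase gene that a probe may not tell apart, lay at 0.16 and -0.20.

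The ERRα response element was searched for, on both strands, in the 300 bases around the start sites that RefSeq gives for each gene on GRCh38.p14 (250 before to 50 after), which covered 7321 of the 8882 genes. TNAAGGTCA was found for 48 of them (0.656%), against 1.17% of all 27305 genes in the promoter table. It was found for 3 of 190 covered genes with lower values at an unadjusted p under 0.05 (1.58%) and for 2 of 197 with higher values (1.02%), so the counts are too small to set against each other. In the respiratory lists 1 of 61 covered genes held it, SDHD. Of the textbook targets 2 of 22 covered genes held it (9.09%), CKMT1A among them, which is again a small count. Among the 30 genes with the smallest p-values described further on, 0 of 23 covered did. A match is a run of letters in a window and no measure of binding.

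The 5 genes with a match and an unadjusted p under 0.05 are shown with 10 bases on each side, 5′ to 3′ along the gene, the match in capitals; where the gene reads TGACCTTGA the element TCAAGGTCA lies on the opposite strand. Lower values with siERRα:
SDHD: ggttggtggaTGACCTTGAgccctcagga
DDX47: aaaagggaccTAAAGGTCAactggagtcc
MSI2: ctcaatcatgTGACCTTGActcctataac
Higher values with siERRα:
PIK3R3: gtaagaaaagTGAAGGTCAggagggggat
FAM107B: aataacgaggTCAAGGTCAgaggcagttg

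The matches started at base 12 after the start site in SDHD (promoter window chr11:112086623-112086922, plus strand), and at -199 in DDX47 (chr12:12813096-12813395, plus), -198 in MSI2 (chr17:57255601-57255900, plus), -41 in PIK3R3 (chr1:46174852-46175151, minus) and -142 in FAM107B (chr10:14532665-14532964, minus). The log2 differences of these genes were -0.41, -0.33, -0.47, 0.58 and 0.62 in that order. The same element therefore stood beside values that differed in both directions. The whole SDHD window, the only one of a respiratory gene with a match, is given with the match in capitals.
SDHD promoter: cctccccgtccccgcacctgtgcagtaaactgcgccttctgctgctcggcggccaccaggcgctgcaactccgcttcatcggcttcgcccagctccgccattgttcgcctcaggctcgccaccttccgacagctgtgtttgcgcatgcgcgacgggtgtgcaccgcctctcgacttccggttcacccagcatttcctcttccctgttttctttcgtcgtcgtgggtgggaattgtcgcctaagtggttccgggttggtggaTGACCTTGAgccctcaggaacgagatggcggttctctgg

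The other mitochondrial lists were less even. In the mitochondrial ribosome, which translates the few respiratory subunits encoded inside the organelle, 55 of 74 measured genes had lower means (median -0.11), with arrays lower without overlap for 32 (43.2%) and higher for 5. At an unadjusted limma p under 0.05, 3 of its genes had lower and 2 had higher values. The smallest p-values of this list belonged to the 2 with higher values, MRPS18B (0.42, unadjusted limma p 0.0057) and MRPL44 (0.54, p 0.0305 in limma, with siC arrays at 7.88 and 8.58). MRPL43 and MRPL15 lay at -0.32 and -0.35 (unadjusted limma p 0.0345 and 0.0391), with the other probes of MRPL43 at 0.09 and 0.47. The second probe of MRPS18B differed by -0.06. In the TCA cycle and pyruvate dehydrogenase, 16 of 24 genes had lower means (median -0.09), 8 without overlap and 1 higher. Among carriers and import proteins 14 of 38 lay lower without overlap and 4 higher. SLC25A11, the oxoglutarate carrier, differed by -0.41 and TIMM9, a chaperone of the intermembrane space, by -0.54, while SLC25A13, the aspartate-glutamate carrier, differed by 0.38. Fatty acid oxidation had a median of -0.02 with 5 of 22 genes lower without overlap (22.7%, near the 18.5% of all genes) and 0 higher. No gene of this list had an unadjusted limma p under 0.05. The smallest p was that of ACADM, the medium-chain acyl-CoA dehydrogenase (11.04 and 10.56 against 10.38 and 10.52, with its second probe at 0.04).

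No such tilt was seen in the regulators that work with ERRα. Of 25 listed partners and mitochondrial regulators 13 were measured, and PPARGC1A, ESRRB and ESRRG were not among them. Apart from ESRRA, only GABPB1, a subunit of the NRF-2 factor, had an unadjusted p under 0.05 (8.08 and 8.36 with siC, 8.80 and 8.54 with siERRα, limma p 0.0433), and its other probes differed by -0.09 and 0.13. PPARGC1B, the gene of PGC-1β, was dim at 5.99 and 5.62 against 6.07 and 5.71, and TFAM, the packaging factor of mitochondrial DNA, read 10.51 and 10.65 against 10.73 and 10.57. Their arrays overlapped.

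In glycolysis and the pentose phosphate pathway 17 of 27 measured genes had higher means (median 0.04). The arrays lay higher without overlap for 8 (29.6%, against 19% of all genes) and lower for 3 (11.1%, against 18.5%). Measured against the mean of the siC arrays, the list median was -0.09 and 0.09 on the siC arrays and 0.04 and 0.10 on the siERRα arrays, so these medians overlapped. In resistant, starved and HRG-treated cells the list medians were -0.004, -0.039 and -0.035. The hexokinases HK2 (8.86 and 8.90 against 9.11 and 9.45) and HK1 (12.58 and 12.66 against 12.91 and 12.90) had higher values, and PFKP, a phosphofructokinase, had lower ones (10.29 and 10.48 against 10.06 and 10.00). None reached an unadjusted p under 0.05. In glutamine, glutamate and aspartate metabolism 14 of 20 genes had higher means (median 0.08), yet the gene with the smallest p, GOT1, the cytosolic aspartate transaminase, read 10.77 and 10.66 with siC and 10.41 and 10.35 with siERRα (1.26-fold lower, unadjusted limma p 0.0116). IVD, an enzyme of leucine breakdown, differed by 0.57 (8.46 and 8.72 against 9.40 and 8.91). The cytosolic ribosome had a median of 0.00 over 53 genes, with 7 lower and 7 higher without overlap.

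Among stress and signalling lists, 12 of 18 measured interferon-stimulated genes had lower means (median -0.14), 9 without overlap and 1 higher. UBE2L6, which attaches ISG15 to proteins, read 6.85 and 6.35 against 5.68 and 6.32. The antiviral membrane proteins IFITM2 and IFITM3 differed by -0.42 and -0.55, and USP18, which removes ISG15, by 0.36. The siC replicates of IFITM3 lay apart, at 10.17 and 9.57, and the list median moved to -0.06 with the authors' normalised table and to -0.07 without replicate 2 of the siERRα cells. In the MAPK and AP-1 list the transcription factor FOSL2 read 6.70 and 7.05 against 6.38 and 6.03, the immediate early gene IER2 7.25 and 7.26 against 7.79 and 7.89, around a list median of 0.00. The cytokine LIF was detected on both siERRα arrays and on neither siC array, close to the detection limit, so no fold is given. CRELD2, a chaperone of the endoplasmic reticulum, differed by 0.45 (10.83 and 11.12 against 11.40 and 11.45) in an unfolded protein list with a median of 0.06. In the ATF4 list (median 0.06) PSPH, of serine synthesis, and LARS1, which charges tRNA with leucine, differed by 0.43 and 0.28, and HMOX1, haem oxygenase, by 0.43 in the detoxification list (median -0.05). The second probe of PSPH differed by -0.10.

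Lists of growth and identity held few such genes. DNA replication and G1/S (43 genes) and mitosis and G2/M (54) had medians of 0.02 and -0.06, and RRM2, of ribonucleotide reductase, differed by 0.34. RFC2, of the clamp loader, differed by 0.72 with 1 siC array at 7.91 and the other at 8.82, and by 0.11 on its second probe. WIPI2, an autophagy protein, read 7.67 and 7.58 against 6.94 and 7.15. CASC3, an exon junction protein whose gene lies by the HER2 amplicon, differed by -0.30, while ERBB2 differed by 0.25 with overlapping arrays and by -0.08 on its second, dimmer probe. LAMB3, a laminin chain, differed by -0.71, and KRT15, a basal keratin, by 0.47. The chemokine CCL2 and the protease CTSZ had large mean differences carried largely by 1 array each, though their arrays did not overlap. CCL2 read 8.69 and 7.42 with siC against 7.13 and 6.68 with siERRα, and CTSZ read 8.85 and 8.94 against 6.62 and 8.77, with standard errors of 0.557 and 0.707. In resistant, starved and HRG-treated cells CCL2 differed by -0.85, -0.42 and -0.52 and CTSZ by -0.63, -1.26 and -0.24. In the 5 lists of markers of cell types and in that of the siRNA machinery, 15, 3, 1, 1, 3 and 11 genes were measured, and no gene but KRT15 had an unadjusted p under 0.05.

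The respiratory genes were then set beside the other cells, whose arrays the parental comparison does not share. Of the 73 genes, 63 had lower means with siERRα in resistant cells, 57 in starved cells and 57 in HRG-treated cells, and their medians were -0.17, -0.10 and -0.13. Lower means in parental cells and in all 3 others were found for 41 of the 73 (56.2%), against 923 of all 8882 genes (10.4%). For complexes II to IV and cytochrome c this was 18 of 23, for the ATP synthase 11 of 17 and for complex I 12 of 33. On the mean of the 3 other cell settings 15 of the 73 had lower values at an unadjusted limma p under 0.05 and 0 had higher ones, against 390 of 8882 genes (4.39%) with lower values. ESRRA itself was the 1 gene of 9592 (0.0104%) with an adjusted p under 0.05 on that mean (log2 difference -1.58, adjusted limma p 0.000416).

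UQCRB lay at -0.68 in parental cells and at -0.30, -0.33 and -0.26 in resistant, starved and HRG-treated cells, and NDUFA8 at -0.48 and then -0.28, -0.29 and -0.19. SDHD kept close to its parental -0.41 in resistant cells (-0.44) and HRG-treated cells (-0.59), with -0.18 in starved cells. COX7B, a complex IV subunit with only -0.14 in parental cells, had -0.62, -0.31 and -0.36 in the others. Across all 8882 genes the parental differences correlated with those of resistant cells at a Pearson r of 0.222, of HRG-treated cells at 0.114 and of starved cells at 0.0525, a description over genes, which are not independent.

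**Figure D4:**
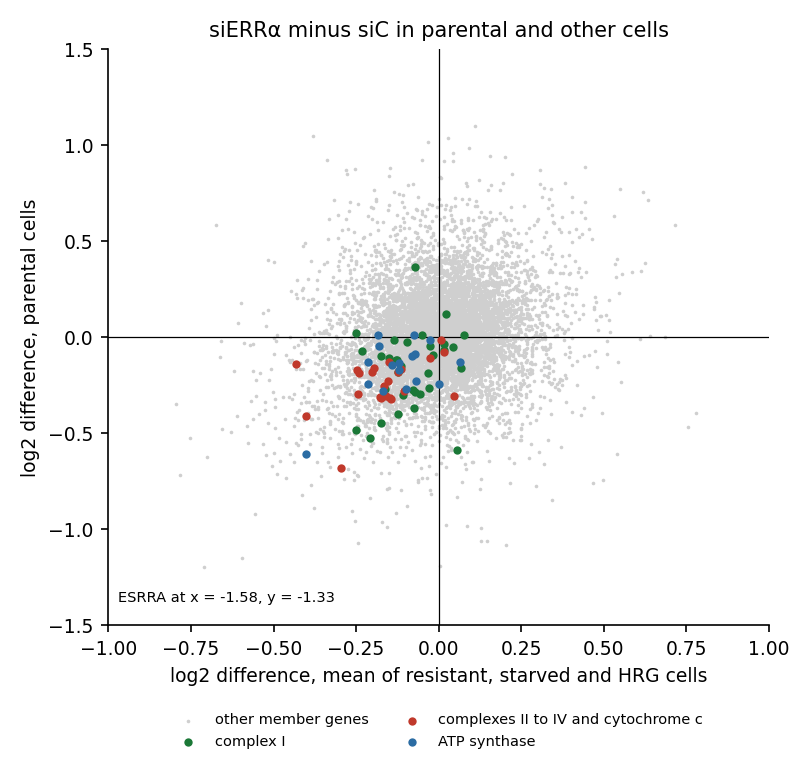
Log2 difference, siERRα minus siC, in parental cells (vertical) against the mean of resistant, starved and HRG-treated cells (horizontal) for the 8882 genes (grey) and the genes of complex I (green), of complexes II to IV and cytochrome c (red) and of the ATP synthase (blue). Most coloured points lie at the lower left; ESRRA, the 1 gene beyond the horizontal range, is given by its values, -1.58 and -1.33.

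A test of the difference itself found no gene whose response in parental cells differed from that in resistant cells at an adjusted p under 0.05, 0 of 9592 (0%) in limma, with 373 at an unadjusted p under 0.05. The 6 genes with the smallest p-values were RTN4R, CYSRT1, LOC730101, HEATR3, CASTOR1 and MAP3K3. RTN4R, a receptor for myelin proteins, had the smallest adjusted p, 0.457, with siERRα differences of -0.23 in parental and 0.93 in resistant cells. MAP3K3, a kinase above the MAPK cascades, had -0.65 and 0.69 (its second probe -0.01 in parental cells), and CASTOR1, an arginine sensor of the mTORC1 pathway, -0.33 and 0.69. CYSRT1 had -0.47 and 1.20. The respiratory lists did not stand out in this test, with 2 of 73 genes at an unadjusted p under 0.05 against 332 of 8882. Parental minus starved and parental minus the mean of the 3 settings also gave 0 genes at the adjusted threshold, with 453 and 414 at an unadjusted p under 0.05 in limma.

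The genes with the smallest p-values whose arrays did not overlap, 15 in each direction, mostly lay near the detection limit. On the lower side, after ESRRA, were TEPSIN, AEBP1, LOC730101, PPIC, KLHL24, LYL1, UQCRB, SPACA9, KIF13B, PPM1D, NDUFA8, SCAND2P, ADD3 and TRIM56. Of these 15, 7 were not detected on either siERRα array, so that only a bound is measured. TEPSIN, a protein of AP-4 coated vesicles, was at least 1.61-fold lower (6.23 and 6.20 with siC, measured values of 5.43 and 4.88 with siERRα), and AEBP1, a secreted collagen-binding protein, at least 1.26-fold lower. PPIC, a cyclophilin, was detected on all arrays at 10.11 and 10.00 against 9.32 and 9.59 (1.51-fold lower, SE 0.132, adjusted limma p 0.441), and its other probe differed by -0.32. KLHL24, an adaptor of a ubiquitin ligase, read 7.98 and 7.69 against 7.24 and 6.89, and PPM1D, the WIP1 phosphatase of the p53 pathway, 6.67 and 6.22 against 5.48 and 5.86. ADD3, a membrane skeleton protein, read 7.61 and 7.49 against 6.11 and 7.06, the siERRα arrays lying nearly 1 log2 unit apart. TRIM56, of innate antiviral signalling, read 8.06 and 7.91 against 7.35 and 7.50.

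Higher values were led by FAM118B, ACBD5, VAPA, TUBGCP4, CPEB4, ANXA9, HEATR3, SLC10A7, NCDN, SPTBN1, FGFR3, WSB1, PDCD11, STRN4 and PRKAR2A, 5 of them undetected on both siC arrays. FAM118B was at least 1.54-fold higher (5.44 and 5.19 measured with siC, 6.30 and 6.31 with siERRα, adjusted limma p 0.335). ACBD5 and VAPA, whose proteins bind each other to tether peroxisomes to the endoplasmic reticulum, were at least 1.40-fold and 1.41-fold higher, with adjusted limma p-values of 0.335. TUBGCP4, of the γ-tubulin ring complex, was measured on all arrays at 7.73 and 7.65 against 8.63 and 8.35 (1.74-fold higher, SE 0.157). ANXA9, an annexin, read 6.32 and 6.28 against 6.88 and 6.96, and HEATR3, which helps import a ribosomal protein into the nucleus, 6.80 and 7.10 against 7.96 and 7.78. FGFR3, a fibroblast growth factor receptor, read 9.12 and 9.10 against 9.93 and 9.74, but its second, dimmer probe differed by -0.93 and the mean of its probes by -0.10, so its direction rests on the probe. The second probe of WSB1, a ubiquitin ligase subunit, differed by -0.02 against 0.52 for the first. PRKAR2A, a regulatory subunit of protein kinase A, read 6.65 and 6.80 against 7.66 and 7.32.

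**Figure D5:**
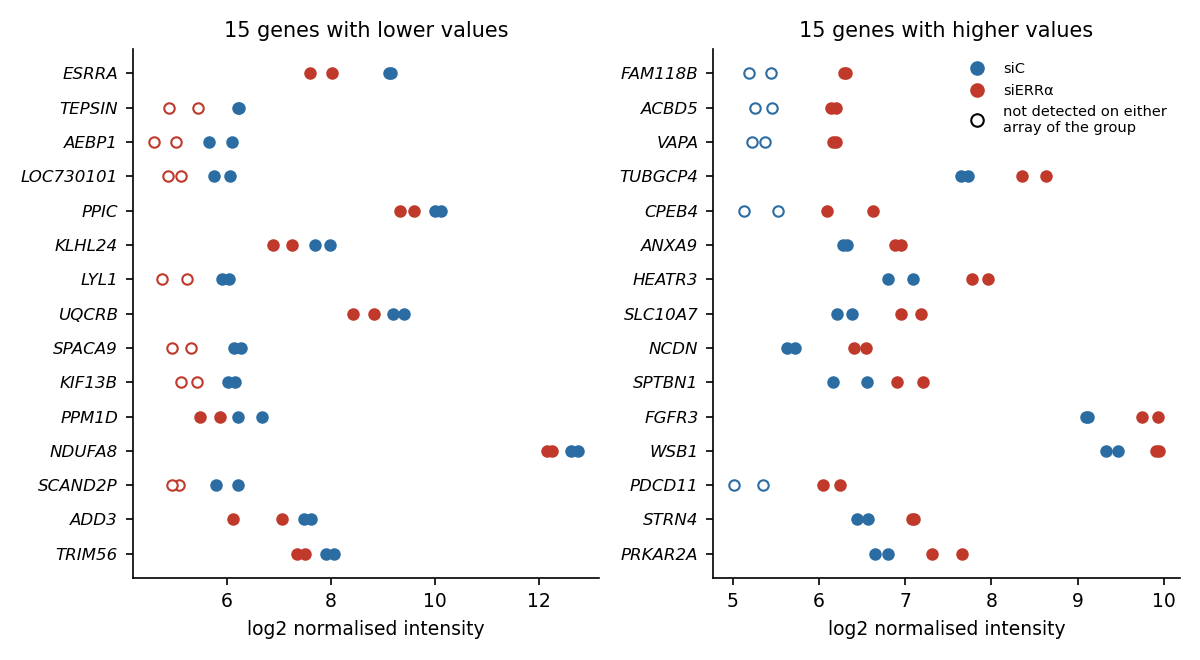
Log2 normalised intensity on each parental array (blue siC, red siERRα) for the 15 genes per direction with the smallest p-values among those whose arrays do not overlap; open points are genes not detected on either array of that group. Most lie between 5 and 8, and NDUFA8, at 12.2 to 12.8, is the highest.

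For the sign of the difference in the other cells these 30 genes were followed on arrays outside the parental difference. Those arrays had also entered the normalisation, the probe filter and the spread behind the p-values that chose the genes. The sign was the same in resistant cells for 23 of 30, in starved cells for 17 and in HRG-treated cells for 20, and in all 3 for 12 (40%). The shares of all genes were 58.0%, 52.3%, 54.9% and 20.6%. The 12 include ESRRA, the target of the siRNA. The 30 also hold genes not detected on either siERRα array or on either siC array of parental cells, VAPA and PDCD11 among them. Their parental differences rest in part on values below the detection limit, so the shares are given as a description. Of the 14 lower genes other than ESRRA, 5 had lower means in all 3: PPIC, KLHL24, UQCRB, NDUFA8 and TRIM56. Of the 15 higher genes 6 had higher means in all 3: VAPA, ANXA9, SLC10A7, NCDN, FGFR3 and PDCD11. Some of these signs belong to values near 0. In resistant, starved and HRG-treated cells TRIM56 lay at -0.0046, -0.037 and -0.018 and PDCD11 at 0.022, 0.099 and 0.013. In starved cells KLHL24 lay at -0.024 and NCDN at 0.020. ANXA9 was the most even, at 0.62 in parental cells and 0.52, 0.41 and 0.41 in resistant, starved and HRG-treated cells.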

How the data were processed

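RNA of each sample was hybridised to an Illumina HumanHT-12 v4 BeadChip. The deposited raw table gives, for 47323 probes and 20 arrays, the bead-summarised intensity on a linear scale, with no background subtraction or scaling seen in its values, and a deposited detection p-value per probe. The authors also deposited a table normalised with lumi in FlexArray, read here as log2 values and used only as an alternative, as its transform and scale are not given in the sources used here. Their tests were SAM and Student's t-test. Columns of values with no matching sample numbered 0.

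Intensities were corrected with normexp on the detection p-values (offset 16), put on the log2 scale and quantile-normalised over 20 arrays (limma 3.58.1 in R 4.3.3). The offset makes fold changes of dim genes smaller. Probes were kept when detected at p under 0.01 on both arrays of at least 1 of 10 groups. Of the probes, 30113 carried 1 gene symbol, 8 several and 17202 none, and 30074 matched the RefSeq table of GRCh38.p14 by Entrez identifier, which updated 0 symbols. Each gene was read from its brightest detected probe, and 2107 of the genes had several in parental cells. Probes without a symbol, 3030 of those kept, were tested apart, with 0 passing the adjusted threshold and 161 at an unadjusted p under 0.05.

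One limma fit of group means over 19 arrays, without the EGF siERRα array that stands apart, gave all two-sided tests (9 residual degrees of freedom), adjusted by Benjamini-Hochberg over 9592 genes and called at 0.05. The code of the fit was checked on simulated data with independent noise and known changes larger than most differences described here. That check does not bear on how well small differences are found. A gene detected on no array of a group is given as at least N-fold, from the mean of the bright group over the mean, per dim array, of the higher of its own value and the lowest detected signal. Lists are described by counts and medians, without a set test. The text names ESRRA, the 15 genes per direction with the smallest p among those with arrays that do not overlap, up to 4 with the smallest p in each list and the 6 with the smallest p for parental minus resistant. Further genes at p under 0.05 or at the end of a list's range, regulators, and genes with the response element were chosen after their values were seen. The comparison and the gene lists were chosen with earlier results of these data known. The number of arrays limits the precision, and intensities of different probes are not on a common scale, so levels are compared between groups only. The alternatives tried were other arrays in the fit, array weights, the replicate number as a block, other background corrections, scalings, filters and probe rules, robust moderation, the methods' t-test and leaving out each array.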

Additional observations from a re-analysis of the deposited data

Results flagged for a closer look

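ESRRA met the criterion of a response that differs between 2 kinds of cells by a test of the difference itself. With siERRα it was lower by a log2 difference of -1.33 in parental cells and of -2.61 in resistant cells, and parental minus resistant was 1.28 (SE 0.343, unadjusted limma p 0.0025, 0.00751 after adjustment over the 3 differences tested for this gene and 0.999 over all genes). Both siERRα arrays of resistant cells (6.39 and 6.41) lay below both of parental cells (7.60 and 8.02), while the siC arrays overlapped. Over the alternatives the difference ran from 0.48 with the authors' normalised table to 1.49 without replicate 1 of the parental siERRα cells. The part of the array, culture or transfection in it was not tested.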

How the results depend on the processing

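The count of genes passing the adjusted threshold in parental cells was 0 with 19 arrays and moved to 1 without background correction, 2 with median scaling and 1 with robust moderation. ESRRA was called in each of these, at log2 differences of -1.02, -1.34 and -1.33, and FAM118B (1.12) with median scaling only. With the authors' table ESRRA lay at -0.83. The differences from resistant, starved and the 3 other cell settings gave 0 genes under every alternative run. Genes at an unadjusted p under 0.05 numbered 487, and 220 with all 20 arrays. With no filter on dim probes they numbered 925, but that setting tests more genes, so the 2 counts are not on the same base. By the methods' t-test 538 genes had such a p and 0 passed once adjusted by Benjamini-Hochberg.

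Median scaling moved the medians of complex I, complexes II to IV, the ATP synthase and the textbook targets further down, to -0.20, -0.31, -0.24 and -0.30, with 60 of 73 respiratory genes lower without overlap and 0 higher. It also moved all genes from 1645 lower and 1691 higher without overlap to 1874 and 1323 (58.6% lower, from 49.3%). The mean of detected probes put the ATP synthase at -0.18. Without 1 parental array these 4 medians ran from -0.19 to -0.082, -0.29 to -0.15, -0.19 to -0.11 and -0.29 to -0.17. Of the named genes, FGFR3 turned to -0.10 with the mean of its probes, and COX7C to 0.0075 with the authors' table. Leaving out 1 parental array gave COX7C from -0.12 to 0.095, COX7A2L from -0.32 to 0.18 and NDUFV3 from -0.00022 to 0.73.

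The labels do not say what a replicate number marks. The names of the arrays end in numbers for replicate 1 and in letters for replicate 2, and whether this marks a batch is not given in the sources used here. Deviations of same-numbered parental siC and siERRα arrays correlated at 0.0867, and over 36 pairs of 9 groups from -0.0948 to 0.338, with 18 over 0.1. In starved cells each siC array correlated most with the siERRα array of the same number (0.988 and 0.987). In parental cells this held for replicate 2 (0.990), while each replicate 1 array was closest to the other array of its own group (0.989). The resistant siC arrays were closest to each other (0.990). These values do not settle whether the numbers pair the samples, and the main fit did not pair them. With the replicate block the count of calls was 0, with 597 genes at an unadjusted p under 0.05, and ESRRA had an adjusted p of 0.26. A slide block was not run, as the headers read here give no slide.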
